A study of Bos taurus with 12 samples.

Results

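The genes described are 7 cyclins (CCND1, CCND2, CCND3, CCNE1, CCNE2, CCNA2 and CCNB1) and 3 cyclin-dependent kinases (CDK1, CDK2 and CDK4). They were chosen by name, are 10 of the 18436 genes of the deposited expression table, and all 10 were among the 12302 genes tested. Primary myoblasts from the longissimus dorsi muscle of newborn Qinchuan cattle were sampled either as proliferating cells or as myotubes. The proliferating group, GM, was at 80% confluence in growth medium with 20% fetal bovine serum. The other group, DM, had spent 4 days in differentiation medium with 2% horse serum and was at 100% confluence, so medium, serum, density and time in culture differ together between the groups and cannot be told apart. Each group had 3 input libraries, which measure mRNA, and 3 libraries of fragments pulled down with an antibody against N6-methyladenosine (m6A), 12 libraries in all. The methods of the study describe the cells as coming from a single newborn animal and the labels name no separate animals, so the p-values below measure the spread between libraries and not between cattle.

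A cyclin-dependent kinase (CDK) is inactive until it binds a cyclin, and cyclins are made and destroyed at set points of the cell cycle. D-type cyclins with CDK4 or CDK6 respond to growth factors and start the phosphorylation of the retinoblastoma protein, E-type cyclins with CDK2 carry cells into S phase, cyclin A2 works with CDK2 and CDK1 through S phase and G2, and cyclin B1 with CDK1 drives mitosis. Myoblasts leave the cell cycle for good as they form myotubes, and in muscle cyclin D3 is known as the D-type cyclin that remains in differentiated cells.

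The mRNA of CCNB1, CCNA2 and CDK1 was 5.09-fold to 11.9-fold lower in DM. CCND2, CCND1, CCNE1, CCNE2 and CDK2 fell by smaller amounts, and CCND3 and CDK4 did not pass the test. CCNB1, CCNA2, CDK1 and CCND2 were called lower in DM, where a call was made on log2(FPKM + 1) and needed both more than a 1.5-fold difference and an unadjusted limma p below 0.05. FPKM are fragment numbers scaled for transcript length and library depth. Their sum over all genes ran from 415740 to 434458 in the GM libraries and from 386436 to 390827 in the DM libraries. Differences between the groups thus depend in part on how the libraries are scaled. No member was called higher. Of all tested genes, 6.97% were called lower and 4.9% higher. By the Benjamini-Hochberg (BH) adjusted p of limma alone, under 0.05, 8 of the 10 members were lower and none higher, against 26.7% lower and 16.1% higher among all tested genes. The 3 values of each group did not overlap for 9 of the 10, all lower in DM, CCND3 being the exception. Of all tested genes 33% were so separated with DM lower and 21.1% with DM higher. The median log2 fold change (DM minus GM) was −0.49 over the 10 members and −0.05 over all tested genes. Below, "fell" is used for genes with an adjusted p under 0.05. In bulk RNA, fewer cycling cells and less of a transcript per cell cannot be told apart.

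**Figure D1:**
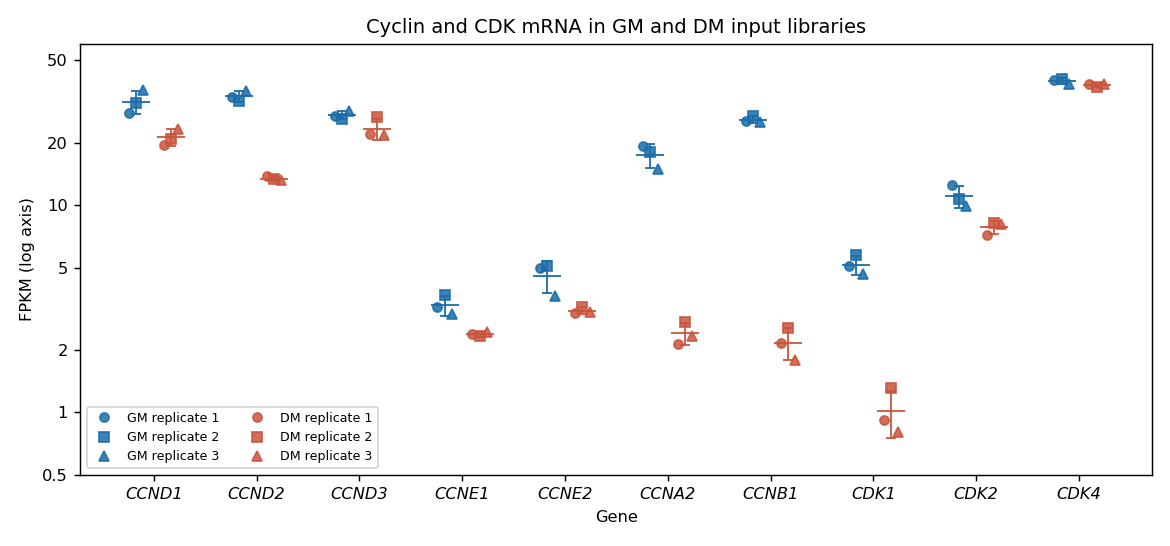
FPKM of the 10 genes in each input library on a log axis, GM in blue and DM in red, with the symbol giving the replicate, the horizontal bar the group mean and the error bar 1 SD (n = 3). CCNA2, CCNB1 and CDK1 drop furthest, CCND2 is also well below its GM values, and the CDK4 values nearly coincide.

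Among the 7 cyclins described, the D-type cyclins had the highest mean levels in both groups, although the ranges of CCND3 and CCNB1 overlapped in GM. CCND2, the D-type cyclin gene with the largest change, lies at chr5:105763459-105787132 on the minus strand (ARS-UCD1.2, ENSBTAG00000016649). Its level was 33.2, 31.7 and 35.6 FPKM in the GM libraries and 13.8, 13.3 and 13.2 FPKM in the DM libraries. The groups lay far apart, and the 3 DM values were within a narrow band. CCND2 fell from 33.5 ± 1.98 to 13.4 ± 0.323 FPKM (SD, n = 3), a log2 fold change of −1.26 with SE 0.0576 and a limma BH adjusted p of 1.6e-06.

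CCND1, the D-type cyclin best known for its induction by growth factors, lies at chr29:46888863-46898541 on the plus strand (ENSBTAG00000017514). It stood at 28.0, 31.0 and 35.9 FPKM in GM and at 19.6, 20.9 and 23.5 FPKM in DM. All 3 DM values were below all 3 GM values, with a wider spread inside each group than for CCND2. CCND1 fell from 31.6 ± 4.02 to 21.3 ± 1.97 FPKM (SD, n = 3), with a log2 fold change of −0.54, SE 0.0986 and limma BH adjusted p 0.0027. The fold change was just under the 1.5-fold limit of a call, a GM over DM ratio of 1.48 in FPKM. Leaving out GM replicate 1 or DM replicate 3 moved the log2 fold change to −0.63 or −0.61 and past that limit. The whole 9679 bases of the gene lie opposite LTO1 on the other strand, which had 7.91 ± 2.63 FPKM in GM and 8.17 ± 0.606 FPKM in DM (SD, n = 3).

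CCND3 lies at chr23:15698661-15705476 on the minus strand (ENSBTAG00000010106). Its values were 27.0, 26.1 and 28.5 FPKM in GM and 22.0, 26.5 and 21.7 FPKM in DM. The groups overlapped through DM replicate 2, the only case among the 10 genes. The means were 27.2 ± 1.197 and 23.4 ± 2.71 FPKM (SD, n = 3), and the log2 fold change of −0.21 had SE 0.0813 and a limma BH adjusted p of 0.066, which did not pass. It passed in 1 of 13 alternative fits, over which its adjusted p ran from 0.00737 to 0.371.

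The unequal changes altered the makeup of the D-type pool. The summed FPKM of CCND1, CCND2 and CCND3 was 92.3 ± 6.67 in GM and 58.2 ± 2.75 in DM (SD, n = 3). CCND2 made up 36.3% ± 1.14 of that sum in GM and 23.2% ± 1.59 in DM, and CCND3 29.5% ± 1.09 and 40.2% ± 3.23. CCND2 thus went from the largest of the 3 mean shares to the smallest and CCND3 from the smallest to the largest, with no overlap between the groups for either. The CCND1 share, 34.2% ± 2.19 and 36.7% ± 3.08, overlapped between the groups. Within a library the log2 ratio of CCND2 to CCND1 was 0.75 lower in DM (exact two-sided permutation p = 0.1, the smallest that 3 against 3 can give, BH adjusted over 5 ratios 0.167). The log2 ratio of CCND1 to CCND3 was 0.210 ± 0.146 in GM and −0.132 ± 0.228 in DM, a difference whose exact permutation p was 0.2.

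The E-type cyclins were the least abundant members in GM together with CDK1. CCNE1 (chr18:40424330-40434833, plus strand, ENSBTAG00000004735) had 3.23, 3.70 and 2.97 FPKM in GM and 2.38, 2.33 and 2.46 FPKM in DM. CCNE2 (chr14:69448183-69460811, plus strand, ENSBTAG00000004906) had 4.96, 5.08 and 3.65 FPKM in GM and 3.01, 3.24 and 3.04 FPKM in DM. For both genes the DM libraries were lower and tighter than the GM libraries, and GM replicate 3 came nearest to them. CCNE1 fell from 3.30 ± 0.367 to 2.39 ± 0.0642 FPKM (SD, n = 3; log2 fold change −0.34, limma BH adjusted p 0.0092). CCNE2 fell from 4.56 ± 0.793 to 3.10 ± 0.127 FPKM (SD, n = 3; log2 fold change −0.43, limma BH adjusted p 0.012). Neither reached a 1.5-fold change on the log2(FPKM + 1) scale, which understates the change of genes at such levels. In FPKM itself the GM over DM ratios, 1.38 for CCNE1 and 1.47 for CCNE2, were also under 1.5. Their ratio to each other differed little, with a log2 CCNE2 to CCNE1 ratio of 0.458 ± 0.161 in GM and 0.374 ± 0.0909 in DM (exact permutation p = 0.7).

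CCNB1 showed the largest change among the 10 genes. It lies at chr20:10507979-10517702 on the minus strand (ENSBTAG00000014239). The GM libraries held 25.6, 26.9 and 25.2 FPKM and the DM libraries 2.16, 2.56 and 1.80 FPKM. CCNB1 was on a par with CCND3 in GM, where their ranges overlapped, and below CCNE2 in DM. It fell from 25.9 ± 0.931 to 2.17 ± 0.383 FPKM (SD, n = 3), 11.9-fold in FPKM, with a log2 fold change of −3.09, SE 0.0897 and limma BH adjusted p 2.6e-07. Among the 12302 tested genes this was the 6th lowest log2 fold change.

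CCNA2, at chr6:3425574-3431686 on the plus strand (ENSBTAG00000004943), moved in the same direction. Its level was 19.4, 18.1 and 14.9 FPKM in GM and 2.14, 2.73 and 2.34 FPKM in DM. Every GM library was several times above every DM library, with GM replicate 3 the lowest of its group. CCNA2 fell from 17.4 ± 2.31 to 2.41 ± 0.297 FPKM (SD, n = 3), 7.25-fold in FPKM, with a log2 fold change of −2.43, SE 0.105 and limma BH adjusted p 1.2e-06, the 28th lowest of all tested genes.

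Over the 7 cyclins the summed FPKM went from 144 ± 2.82 in GM to 68.2 ± 3.34 in DM (SD, n = 3). CCNA2 and CCNB1 together made up 30.2% ± 2.53 of it in GM and 6.70% ± 0.651 in DM. The D-type share was 64.3% ± 3.37 in GM and 85.3% ± 0.510 in DM. The E-type share, 5.49% ± 0.863 and 8.05% ± 0.261, was also higher in DM although both E-type genes fell. None of these shares overlapped between the groups.

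**Figure D2:**
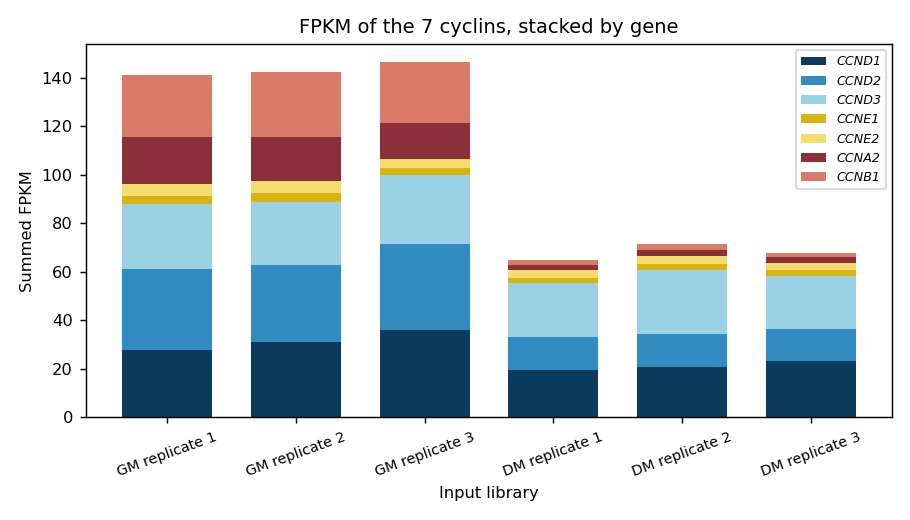
Stacked FPKM of the 7 cyclins (vertical axis) in each of the 6 input libraries. The summed FPKM ranged from 141 to 147 in GM and from 65.0 to 71.7 in DM, and the CCNA2 and CCNB1 layers, together 27.3% to 31.8% of the GM columns, shrink to 6.09% to 7.39% in DM.

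Among the kinases the change followed the order CDK1, CDK2, CDK4. CDK1, the mitotic kinase, lies at chr28:16488142-16582565 on the plus strand (ENSBTAG00000010109). It had 5.08, 5.72 and 4.63 FPKM in GM and 0.921, 1.31 and 0.807 FPKM in DM, which made it the least abundant member in DM. Its DM libraries differed most among themselves in relative terms, with a coefficient of variation of 25.9%. CDK1 fell from 5.15 ± 0.547 to 1.01 ± 0.262 FPKM (SD, n = 3), 5.09-fold in FPKM, with a log2 fold change of −1.62, SE 0.110 and limma BH adjusted p 1.3e-05. With a pseudocount of 0.1 in place of 1 the log2 fold change was −2.26.

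CDK2, the partner of the E-type cyclins and of cyclin A2, lies at chr5:57339030-57344446 on the minus strand (ENSBTAG00000004021). It had 12.5, 10.7 and 9.94 FPKM in GM and 7.18, 8.22 and 8.13 FPKM in DM. The groups did not overlap. CDK2 fell from 11.04 ± 1.31 to 7.84 ± 0.574 FPKM (SD, n = 3; log2 fold change −0.44, SE 0.0893, limma BH adjusted p 0.0048) and was not called. PMEL overlaps 1384 bases of CDK2 on the other strand, and its level was 0.566 ± 0.0134 FPKM in GM and 1.0397 ± 0.116 FPKM in DM (SD, n = 3).

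CDK4, the partner of the D-type cyclins, was the most abundant of the 10 genes in both groups. It lies at chr5:55713433-55717031 on the plus strand (ENSBTAG00000007160). Its level was 40.2, 40.7 and 38.5 FPKM in GM and 38.4, 37.2 and 38.3 FPKM in DM. The lowest GM value and the highest DM value were almost equal. The means of 39.8 ± 1.13 and 37.9 ± 0.686 FPKM (SD, n = 3) gave a log2 fold change of −0.07 with SE 0.0470 and a limma BH adjusted p of 0.29. When FPKM were rescaled so that every library had the same total (TPM), which moved the median of all tested genes from −0.05 to 0.06, the sign for CDK4 turned to 0.06. Beside it the log2 ratio of CDK1 to CDK4 within a library was 2.30 lower in DM and that of CDK2 to CDK4 0.42 lower, each with an exact permutation p of 0.1 and a BH adjusted p of 0.167. CDK4 made up 71.1% ± 1.49 of the summed FPKM of the 3 kinases in GM and 81.1% ± 1.49 in DM.

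In GM the order of mean levels was CDK4, CCND2, CCND1, CCND3, CCNB1, CCNA2, CDK2, CDK1, CCNE2 and CCNE1. The ranges of neighbours overlapped from CCND2 through CCNB1 and from CDK1 through CCNE1. Within every GM library, however, CCND1 was above CCND3, CDK1 above CCNE2 and CCNE2 above CCNE1. The order of CCND2 and CCND1, and that of CCND3 and CCNB1, changed between GM libraries. In DM the order was CDK4, CCND3, CCND1, CCND2, CDK2, CCNE2, CCNA2, CCNE1, CCNB1 and CDK1. There the ranges overlapped between CCND3 and CCND1 and among CCNA2, CCNE1 and CCNB1.

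The spread inside the groups had a pattern of its own. GM replicate 3 had the lowest value of its group for 7 members (CCNE1, CCNE2, CCNA2, CCNB1, CDK1, CDK2 and CDK4) and the highest for all 3 D-type cyclins. It stood at 80.0% of the group mean for CCNE2 and 85.4% for CCNA2, but at 114% for CCND1. Over all tested genes the same library was lowest in 44.5% and highest in 35.0%. Its depth was 0.901 of that of GM replicate 1, the lowest of the 6 libraries. This estimate is the most common ratio of FPKM between the 2 libraries, a value shared by 42 genes. In DM, replicate 2 was highest for 6 members, among them CDK1 at 129% of the group mean and CCNB1 at 118%, and over all tested genes it was highest in 32.5%. Without GM replicate 3 the same limits called 4 members lower and none higher, and so they did without DM replicate 2. What the share of cycling cells or the depth contributed to this spread was not tested.

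**Figure D3:**
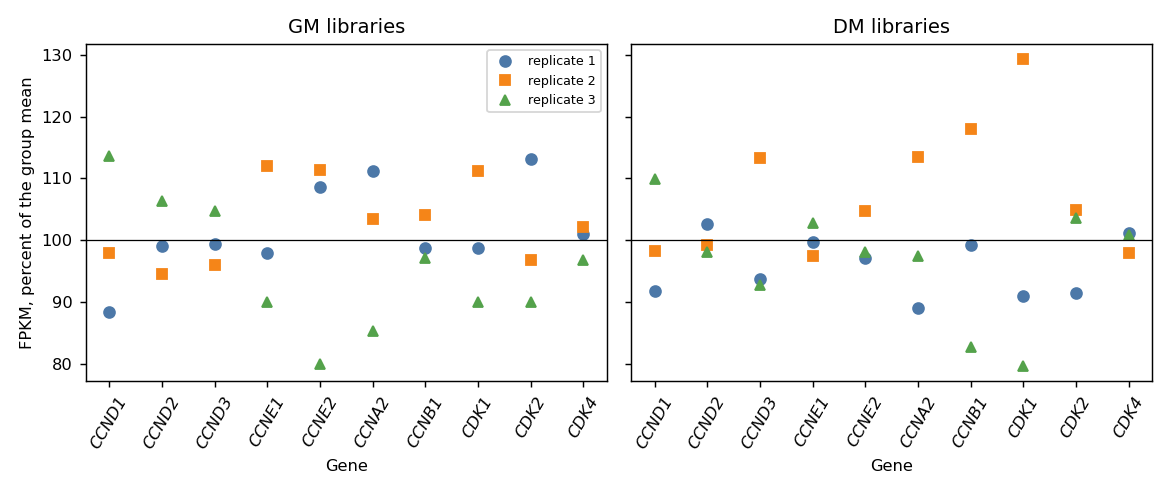
FPKM of each gene in each library as a percentage of its group mean (vertical axis), GM on the left and DM on the right, with the line at 100. In GM, replicate 3 lies above the line for the 3 D-type cyclins and below it for the other 7 genes, and in DM replicate 2 lies above it for CCND3, CCNE2, CCNA2, CCNB1, CDK1 and CDK2.

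The genes with the nearest profiles over the 6 libraries differed from member to member. Nearness is the Euclidean distance between log2(FPKM + 1) profiles centred on their own mean, and it includes the change between the groups. For CCNB1 they were UBE2C, the ubiquitin-conjugating enzyme of mitotic cyclin destruction (distance 0.228), and CENPA, the centromeric histone (0.287). For CCNA2 they were KIF11, a spindle motor (0.146), and CDCA2 (0.177), and for CDK1 ASF1B, a histone chaperone (0.222), and AURKB, a mitotic kinase (0.227). The D-type genes had other neighbours, SERPINH1 and SNAI1 for CCND2, POLR1D and HINT1 for CCND1, and MPV17 and ZYX for CCND3. SERPINH1, the collagen chaperone, went from 1282 ± 87.6 to 562 ± 9.48 FPKM and SNAI1 from 7.11 ± 0.466 to 2.33 ± 0.162 FPKM (SD, n = 3). SRSF10 and TOP2B came nearest to CCNE1, RNASEH2B and NDRG3 to CCNE2, AHSA2 and FKBP7 to CDK2, and TIGD2 and TNPO1 to CDK4. The nearest member to CCNB1 was CCNA2, 25th among all genes, and the nearest to CDK1 was CCND2, 113th.

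Of 87 other genes of the pathway, in 6 lists, 76 were tested. Of 15 other cyclins tested, 2 were called lower and none higher. They were CCNB2, the second mitotic B-type cyclin, at 9.72 ± 0.578 FPKM in GM and 0.766 ± 0.127 in DM (log2 fold change −2.60), and CCNF, which directs protein destruction (−0.75). None of 13 other CDKs was called, and their median log2 fold change was −0.06. By limma BH adjusted p, 2 of them were lower, CDK6 (−0.26) and CDK8 (−0.27), and 1 was higher, CDK14 (0.29). CDK6, CDK8 and CDK14 are named here after their values were seen. CDK6, the other D-type partner, had 8.91 ± 0.362 FPKM in GM and 7.30 ± 0.432 in DM (SD, n = 3).

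Of 11 genes that activate, restrain or bind CDKs, 7 were called lower and none higher, with a median log2 fold change of −0.997. The largest changes were in CKS2, a small CDK subunit (−2.88), PLK1, a mitotic kinase (−2.16), CDC25B, a phosphatase that activates CDK1 (−2.002), and CKS1B (−1.29). Of 11 genes for cyclin destruction, 4 were called lower, namely CDC20, an activator of the anaphase-promoting complex (−3.02), UBE2C (−3.003), FBXO5 (−1.50) and UBE2S (−1.08). The median of this list was −0.13.

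Of 7 CDK inhibitors tested, 3 were called lower, CDKN3 (−2.05), CDKN1C (−0.90) and CDKN2C (−0.89), and none higher. CDKN1A, the p21 gene known for cell cycle exit in muscle, had 119 ± 4.27 FPKM in GM and 151 ± 11.004 FPKM in DM (SD, n = 3). Its log2 fold change of 0.33 was under the fold limit of a call, with a limma BH adjusted p of 0.0035. By an adjusted p under 0.05, 1 of the 7 inhibitors was higher and 4 were lower. Among 19 pocket proteins and transcription factors, MYBL2 (−2.74), E2F8 (−1.54) and FOXM1 (−1.39), all regulators of cell cycle genes, were called lower and none was called higher. The lists were chosen with earlier results of these data known, and their counts are descriptions.

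**Figure D4:**
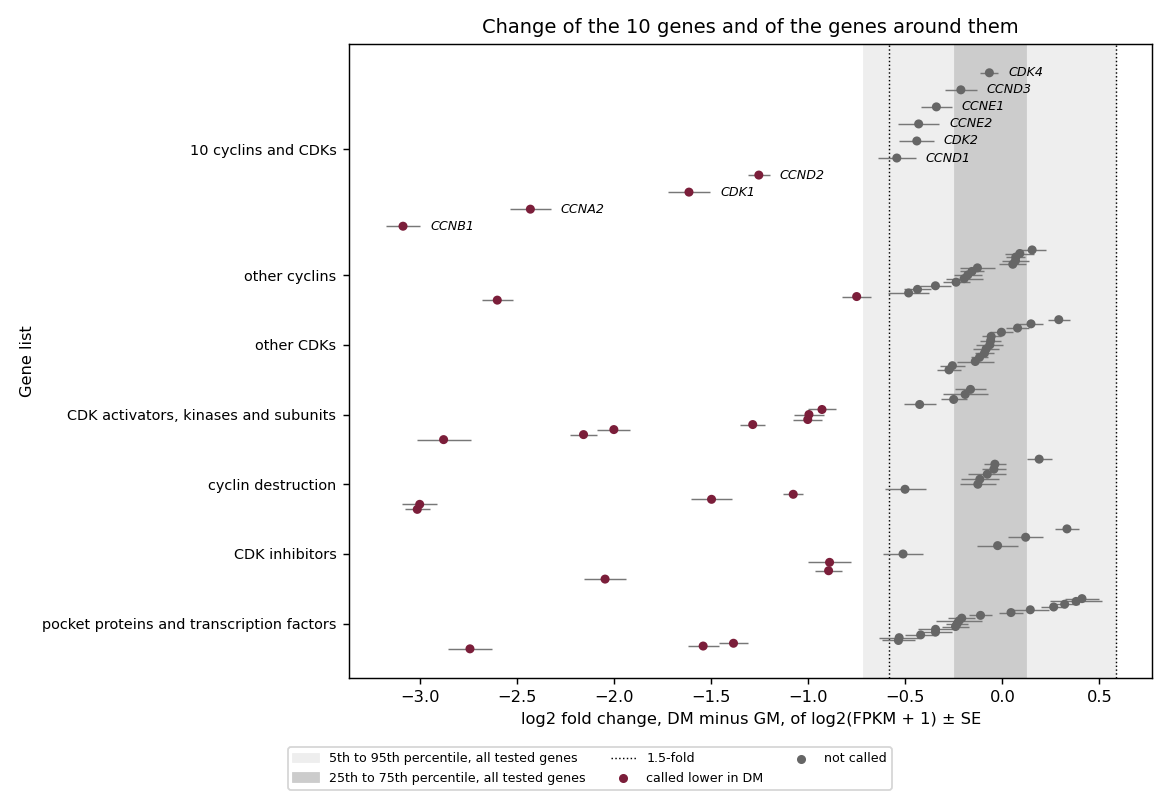
Log2 fold change (DM minus GM) ± SE for the 10 cyclins and CDKs and for each tested gene of 6 pathway lists, dark red where called lower and grey where not called. The shaded bands hold the middle of all tested genes, and CCNB1 (−3.09), CCNA2 (−2.43), CDK1 (−1.62) and CCND2 (−1.26) lie outside them with genes such as CDC20 (−3.02), while none of the other CDKs passes the dotted 1.5-fold lines.

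The cultures were checked against marker genes. Of the myoblast markers PAX7, MYF5 and MYOD1 were called lower in DM, and DES had 453 ± 9.86 FPKM in GM and 489 ± 4.28 FPKM in DM (SD, n = 3). Of the myotube markers MYH3, CKM and TNNT3 were called higher, ACTA1 was called lower (110 ± 20.9 to 70.0 ± 10.95 FPKM), and MYMK and MYOG were not called. By limma BH adjusted p, 4 of the 6 myotube markers were higher, MYOG among them (0.0046), and 1 was lower. MYOG, the myogenin gene of differentiating cells, was already at 197 ± 8.95 FPKM in GM, against 243 ± 14.9 FPKM in DM. The 5 fibroblast markers PDGFRA, COL1A1, THY1, DCN and LUM were present in every library, with a summed level of 7843 to 8075 FPKM in GM and 8636 to 8893 FPKM in DM. None of the 5 was called, 2 were higher by limma BH adjusted p, and myogenic cells can also express collagen genes. Adipocyte, endothelial and immune markers summed to at most 2.63, 0.444 and 2.01 FPKM in any library. The endothelial marker KDR and the immune marker PTPRC were not found by name in the expression data and are not in these sums. The part of differentiated or non-myogenic cells in the member values was not tested.

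Few m6A peaks were listed for these genes. A peak is a stretch where the antibody fraction was enriched over input, and its fold enrichment is the deposited ratio of the antibody fraction over input on the pooled libraries of a group, with no replicate error. In GM 2 of the 10 genes had a peak and in DM 1, and 7 had none in either list. Of all tested genes, 70.9% had a GM peak, 78.7% a DM peak and 19% a peak in neither list. Among the 7779 tested genes whose mean FPKM lay in the range of the members, the shares were 74.4%, 81.7% and 16.2%. By position on either strand, no listed peak lay within CCND1, CCND2, CCNE1, CCNE2, CCNA2, CCNB1 or CDK2. No member had a peak in both lists, so no change in fold enrichment could be given for any of them. Over all 10239 pairs of overlapping peaks, 14.2% were over 1.5-fold higher in DM and 10.8% lower. The absence of a peak says that none was called and is not a measure of unmethylated mRNA.

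The largest fold enrichment was at CDK1, but that peak had the least extreme false discovery rate of those described here. The GM list held a peak of 656 bases at chr28:16581701-16582356 on the plus strand, annotated to the 3′ UTR, with a fold enrichment of 19.6 and a log10 false discovery rate of −4.1. Its fold enrichment was above that of 98.6% of GM peaks. How much input covered this stretch was not examined, so the part of low input in that ratio was not tested. The peak ends 209 bases before the end of a gene model that spans 94424 bases. The DM list held none there, while CDK1 mRNA was 5.15 ± 0.547 FPKM in GM and 1.01 ± 0.262 FPKM in DM, so a lost peak and lower coverage cannot be told apart.

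CDK4 had 2 GM peaks in its 3′ UTR on the plus strand. The first covered 269 bases at chr5:55716076-55716344 with a fold enrichment of 2.05 and a log10 false discovery rate of −58. The second covered 61 bases at chr5:55716464-55716524 with 1.65 and −7.16. By fold enrichment both were in the lower part of the GM list, above 22.9% and 11.3% of its peaks. The DM list named no CDK4 peak, but it had a peak of 568 bases at chr5:55716106-55716673. Its fold enrichment was 2.56 and its log10 false discovery rate −72.7. It was assigned to the minus strand and to the 3′ UTR of TSPAN31, the gene that meets CDK4 end to end. This DM peak overlapped the CDK4 peaks by 239 and 61 bases. All 568 of its bases lie within the CDK4 gene and 73 within TSPAN31 as the gene table places it. The GM list had 0 peaks named TSPAN31. The TSPAN31 mRNA was 65.3 ± 3.42 FPKM in GM and 49.7 ± 0.691 FPKM in DM (SD, n = 3), higher than CDK4 in both groups. The 2 genes share 431 bases, which begin at chr5:55716601, and both GM CDK4 peaks lie before that position. Which gene the enriched fragments came from was not tested, so a loss of m6A from CDK4 in DM cannot be read from the lists.

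CCND3 was the only member with a DM peak under its own name. It covered 297 bases at chr23:15698661-15698957 on the minus strand, at the very 3′ end of the gene, with a fold enrichment of 1.81 and a log10 false discovery rate of −4.43. That is above 18.6% of DM peaks and below the median DM fold enrichment of 3.38. All 4 peaks named for the 10 genes were annotated to 3′ UTRs.

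**Figure D5:**
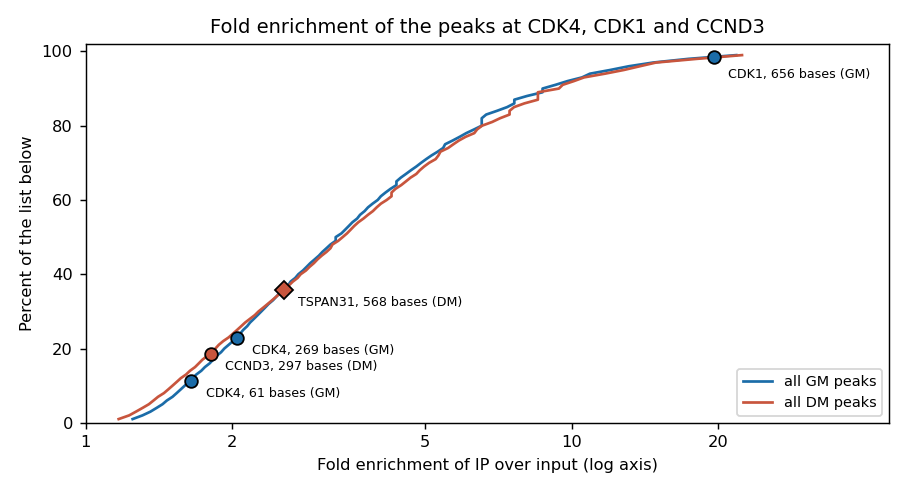
Fold enrichment of antibody fraction over input (log axis) against the percentage of the list with a lower value, for all GM peaks (blue line) and all DM peaks (red line). Circles mark the peaks at CDK4 (2.05 and 1.65), CDK1 (19.6) and CCND3 (1.81), and the diamond marks the DM peak named TSPAN31 (2.56) that lies within CDK4.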

How the data were processed

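The members and gene lists were chosen with earlier results of these data known. The authors trimmed strand-specific reads, aligned them with HISAT2 to ARS-UCD1.2 and computed the deposited FPKM per gene with StringTie. The trimming tool is given differently in the methods and in the submitters' processing notes. The deposited peak lists were called by the authors with exomePeak on uniquely mapped, non-duplicate reads pooled per group. Their fold enrichment is the deposited ratio of IP over input, and the authors' log10 false discovery rate comes with it. Whether peak calling used strand is not given in the sources used here.

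The table holds FPKM and not counts, so log2(FPKM + 1) was fitted with limma 3.58.1 (R 4.3.3, moderated variances with a trend) on the 6 input libraries. Genes averaging 0.5 FPKM or more, 12302 in all, were tested, and BH adjustment ran over all of them. Precision is given by 3 libraries per group. The relative depths, from 0.901 to 1.02 of GM replicate 1, were estimated from the most common ratio of FPKM in GM replicate 1 to FPKM in each library. Peaks were paired by an overlap of at least 1 base of exon blocks on the same strand (bedtools 2.31.1). Named genes are the members, at most 4 called genes per pathway list and direction, the 2 nearest profiles per member and the markers. Outside this rule are CDKN1A, CDK6, CDK8, CDK14, the genes opposite a member, and other genes named for their pairs of peaks. The fit was tested on simulated data. Alternatives covered the pseudocount, the filter, the scaling, the trend, the thresholds, a replicate block and each library left out.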

Additional observations from a re-analysis of the deposited data

How the results depend on the processing

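The main fit called 603 genes higher and 858 lower in DM. Scaling to TPM turned this split to 970 higher and 792 lower, and size factors to 681 and 716, while 4 members stayed called lower in both. A fold limit of 2 left 232 higher and 275 lower. A replicate block gave 608 higher and 865 lower with 4 members lower. Deviations from the group mean correlated from −0.208 to −0.0792 between GM and DM libraries of the same replicate number. Between libraries of other numbers they ran from −0.0594 to 0.187. Deviations of only 3 libraries around their own mean constrain each other, so these values cannot settle whether the samples were paired. Leaving out each library in turn gave 601 to 626 genes higher, 857 to 898 lower, 4 to 5 members lower, and a median of the members from −0.54 to −0.45. CDK4 turned to 0.0561 under TPM and its adjusted p passed in 0 of 13 fits, while that of CCNE1 passed in 12. A fold enrichment of at least 2 left 0 member peaks in DM and 2 in GM. No read depth per gene comes with FPKM, so CDK1 at about 1 FPKM in DM is bounded by the spread of its 3 libraries alone.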

Other observations

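Peaks were also paired in the genes that regulate cyclin transcription. Of 19 pairs of peaks in 14 pocket protein and transcription factor genes, 7 had a fold enrichment over 1.5 times higher in DM and 1 lower, against 14.2% higher and 10.8% lower over all 10239 pairs. The higher pairs lay in E2F4, E2F6, E2F7, E2F8 and FOXM1, named after their values were seen, and the lower pair in RB1. In E2F8 the 2 pairs went from 2.68 to 7.45 and from 1.52 to 3.73, while its mRNA was 2.39 ± 0.109 FPKM in GM and 0.164 ± 0.0662 FPKM in DM (SD, n = 3). FOXM1 mRNA was 1.99 ± 0.0392 FPKM in GM and 0.144 ± 0.0319 FPKM in DM. E2F7, under the filter and so not tested, had 0.649 ± 0.0436 and 0.0935 ± 0.0460 FPKM. Input for these 2 genes and E2F8 was thus low in DM, and its part in their ratios was not tested. In E2F4 the fold enrichment went from 2.43 to 5.96 at nearly level mRNA, 17.3 ± 1.25 and 17.8 ± 0.389 FPKM. E2F6 mRNA was 4.00 ± 0.251 and 3.32 ± 0.684 FPKM. Peaks come from pooled libraries, so these ratios have no replicate error.

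Of the other cyclins tested, 11 of 15 had a peak in each list. Among the other CDKs 9 of 13 had one in GM and 13 of 13 in DM. The shares over all tested genes were 70.9% in GM and 78.7% in DM. The pairs went both ways, with 3 of 13 cyclin pairs higher and 1 lower in DM, and 0 of 10 CDK pairs higher and 3 lower. In CCNL1 one pair went from 2.88 to 7.45 and another from 5.63 to 2.26. These ratios too have no replicate error, and the input under the peaks was not examined.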
